A study of Mus musculus with 15 samples.

Results

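A set of 9 adhesion genes of circulating white cells was followed in mouse whole blood after dosing with a BET inhibitor: Selplg, Itgam, Itgb2, Itgal, Itga4, Itgb1, Itgb7, Icam1 and Cd44. They were taken by symbol, as every probe set of the array's value table annotated with one of these 9 genes alone, which gave 22 of the 45101 probe sets and 9 of the 18193 genes with a probe set of their own. Total RNA came from 15 mice bled after 6 h, in 3 groups of 5 that received vehicle, a 1 mg/kg dose of ABBV-075 or a 5 mg/kg dose of it, and each mouse has 1 Affymetrix array. ABBV-075 (mivebresib) is a small molecule that blocks the bromodomains of the BET proteins, chromatin readers that hold transcription machinery at acetylated histones, and the study looked for blood transcripts that respond to it. The labels name no strain, age or genotype, nor any treatment beyond vehicle or ABBV-075. None of the member probe sets passed the threshold in any of the 3 comparisons of groups.

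White cells leave the blood in steps. P-selectin glycoprotein ligand 1, the product of Selplg, tethers rolling cells to selectins on activated endothelium and platelets, and CD44, which binds hyaluronan, also supports rolling. Integrins are paired alpha and beta chains that switch from a bent to an extended form on chemokine signals and then hold the cell on immunoglobulin-like ligands such as ICAM-1. Itgam with Itgb2 makes Mac-1 of neutrophils and monocytes, Itgal with Itgb2 makes LFA-1 of most leukocytes, Itga4 with Itgb1 makes VLA-4, and Itga4 with Itgb7 makes the gut-homing receptor of lymphocytes.

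Promoter windows show the sequence from which some of these genes are transcribed, and no array value reads them. The RefSeq table (build GRCm38.p6) held 6 of the 9 genes, Itgam, Itga4, Itgb1, Itgb7, Icam1 and Cd44, each with 250 bases before and 50 after the annotated start. Those of 3 are printed, 1 integrin chain of myeloid cells, 1 of lymphocytes and monocytes, and the cytokine-inducible ligand, with matches to the motifs searched in capitals and all other bases in lower case. Itgam lies at chr7:128062390-128062689, Itga4 at chr2:79255176-79255475 and Icam1 at chr9:21015690-21015989, all on the plus strand.
Itgam: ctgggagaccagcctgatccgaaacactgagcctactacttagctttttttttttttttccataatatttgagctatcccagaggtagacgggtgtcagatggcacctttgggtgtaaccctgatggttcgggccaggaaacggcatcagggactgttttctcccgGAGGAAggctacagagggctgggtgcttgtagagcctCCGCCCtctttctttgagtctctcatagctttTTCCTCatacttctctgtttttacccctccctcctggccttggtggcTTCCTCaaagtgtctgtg
Itga4: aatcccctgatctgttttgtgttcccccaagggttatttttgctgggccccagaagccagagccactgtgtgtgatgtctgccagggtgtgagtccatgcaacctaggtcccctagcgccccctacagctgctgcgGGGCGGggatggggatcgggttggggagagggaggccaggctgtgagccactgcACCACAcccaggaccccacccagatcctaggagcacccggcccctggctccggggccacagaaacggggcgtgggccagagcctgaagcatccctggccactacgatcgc
Icam1: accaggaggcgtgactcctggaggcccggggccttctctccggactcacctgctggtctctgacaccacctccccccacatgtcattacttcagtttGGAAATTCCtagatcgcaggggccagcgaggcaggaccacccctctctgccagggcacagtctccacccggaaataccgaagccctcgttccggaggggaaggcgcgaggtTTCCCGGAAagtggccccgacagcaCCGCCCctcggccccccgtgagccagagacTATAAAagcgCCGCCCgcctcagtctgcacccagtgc
A set of 8 motifs was searched on both strands of 32851 such windows, and in the 3 printed windows no match overlapped another. The ETS core of the PU.1 type, GAGGAA or its reverse complement, stands 3 times in the Itgam window and was also found in those of Cd44, Itgb1 and Itgb7, 4 of 6 members against 28.3% of all windows. The NF-kB motif GGAAATTCC, the interferon-gamma activated site TTCNNNGAA and the TATA box TATAAA were each found in Icam1 alone among the 6, against 0.317%, 8.3% and 13.6% of all windows. The NF-kB motif was searched as 1 exact sequence, so its rarity reflects that choice and other forms of the site in the 6 windows were not looked for. The TATAAA match in Icam1 begins at base 14 after the annotated start, not before it. The RUNX motif TGTGGT was in Itga4 alone among them (16.8% of all windows), and the Sp1 GC box GGGCGG was in 5 of 6, all but Itgb7 (35.7%). The AP-1 motif TGANTCA (7.81%) and the Myc-type E-box CACGTG (7.15%) were in 0 of the 6. A match describes letters only, and the blood arrays hold no measure of binding at any of these windows.

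Values are array intensities after quantile normalisation, which gives all arrays 1 common distribution, with anything under 16 set to that floor. A probe set was tested if it lay above the floor on at least 5 of the 15 arrays. Of the 22 member probe sets 18 were tested, and each of the 9 genes had at least 1 of them. The other 4 were too dim. Itga4 1450155_at, Itgb1 1426919_at and Cd44 1443265_at were at the floor on all 15 arrays, and Itga4 1427615_at left it on 1 vehicle array only, at 18.3. Levels are compared between groups within a probe set and never between probe sets, whose probes differ in brightness. Differences are on the log2 scale of the floored values, which understates them for dim probe sets, with the SE and adjusted p of limma's moderated test over all 24273 tested probe sets and n = 5 mice per group. Each SE rests on 1 spread estimated from all 3 groups, so a scattered group also widens the comparison of the other groups. The number of arrays limits the precision, and the labels give 5 mice per group but not whether cages or days were shared.

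The arrays differed before normalisation, with medians from 3.61 in 1 mg/kg replicate 1 to 25.4 in 1 mg/kg replicate 4, and after it any pair of arrays correlated at r = 0.703 to 0.923 over 105 pairs. Control probe sets for 18S ribosomal RNA gave a mean log2 value of 11.19 ± 0.94 in the vehicle group (SD, n = 5), against 9.97 ± 0.43 for the lower dose and 9.42 ± 0.42 for the higher. Its part in the values below was not tested beyond a fit that held it as a covariate, in which the member medians were -0.48 at 5 mg/kg and -0.57 at 1 mg/kg, against -0.32 and -0.42 without it. Whole blood was recognisable by markers of red cells, platelets, neutrophils, monocytes, T cells, B cells and NK cells, while 3 of 7 endothelial markers (Tie1, Tek, Cldn5) and 4 of 6 eosinophil markers (Siglecf, Epx, Ccr3, Il5ra) were at the floor on all 15 arrays. Cdh5 and Egfl7 of the endothelial list were above it on 5, 4 and 5 mice of the vehicle, 1 mg/kg and 5 mg/kg groups. Emcn was above it on 5, 3 and 3. Of the eosinophil list Prg2 was above it on 1, 5 and 3 and Alox15 on 5, 5 and 4. Alox15 differed from vehicle by -2.14 ± 0.72 at 5 mg/kg (limma, adjusted p = 0.369) and -0.67 ± 0.72 at 1 mg/kg (adjusted p = 0.931). In bulk blood, fewer cells of a type and less RNA per cell cannot be told apart.

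Most members lay below vehicle on average at both doses, and none passed the test. At 5 mg/kg against vehicle 0 of 18 probe sets passed an adjusted p of 0.05 (limma), where 33 of 24273 did (0.136%), and 1 had an unadjusted p under 0.05, which is 5.56% of the 18 against 7.96% of all. At 1 mg/kg 0 of 18 passed, where 2 of all did (0.00824%), and 3 had an unadjusted p under 0.05 (16.7% against 5.8%). Between the doses 0 of 18 passed, where 0 of all did (0%), and 1 had an unadjusted p under 0.05 (5.56% against 8.66%). In no comparison did a member's 5 arrays lie wholly to one side of the other group's, which held for 2.44% of all probe sets at 5 mg/kg against vehicle, 0.865% at 1 mg/kg against vehicle and 1.27% between the doses.

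By direction, at 5 mg/kg 14 of 18 differences were below 0 (77.8%, against 50.8% of all probe sets), with a median of -0.32 against -0.01 and a range of -0.55 to 0.23. At 1 mg/kg 16 of 18 were below 0 (88.9% against 52.7%), with a median of -0.42 against -0.02 and a range of -1.05 to 0.28. Without 1 mg/kg replicate 1 the count and median were 15 of 18 and -0.30. The count was 13 of 18 without vehicle replicate 4 (median -0.33) and also without 1 mg/kg replicate 5 (median -0.32). Against the lower dose, the higher dose gave 5 of 18 below 0 (27.8% against 50%), a median of 0.12 against 0 and a range of -0.56 to 0.82. With 1 probe set per gene, the brightest, 9 of 9 were below 0 at 5 mg/kg and 8 of 9 at 1 mg/kg, with medians of -0.36 and -0.47. Over all genes read this way, 6675 of 12499 were below 0 at 5 mg/kg and 6627 of 12499 at 1 mg/kg. Both doses were set against the same vehicle arrays, so the values at one dose are no check on those at the other, and probe sets of 1 gene share its transcripts. Without scaling between arrays the count below 0 at 5 mg/kg was 12 of 18 with a median of -0.17, where the median of all probe sets was 0.12.

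**Figure D1:**
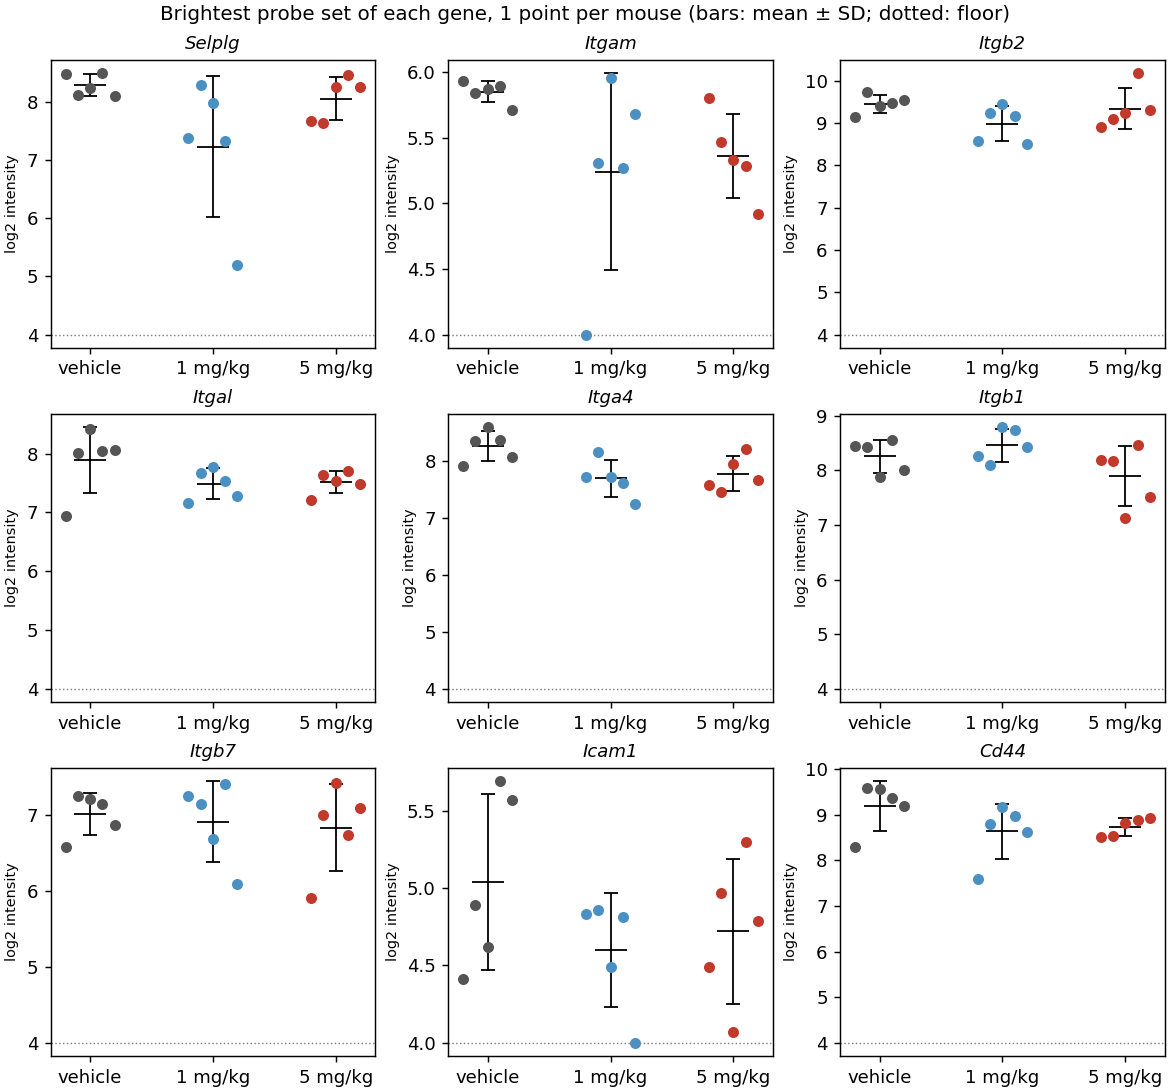
Log2 intensity of the brightest tested probe set of each of the 9 genes (vertical axes, each with its own range) by dose group, 1 point per mouse, with mean ± SD bars over 5 mice and the floor as a dotted line at 4. Groups overlap in every panel; Selplg and Itgam spread most at 1 mg/kg (SD 1.21 and 0.75), each through 1 low mouse.

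Selplg (Entrez 20345), the selectin ligand, had the most negative member value, at the lower dose only. Its single probe set, 1449127_at, read 358, 278, 301, 359 and 275 with vehicle, 167, 313, 250, 161 and 36.6 at 1 mg/kg, and 204, 200, 306, 350 and 304 at 5 mg/kg. At 1 mg/kg 4 of the 5 mice lay below every vehicle mouse and 1 lay among them, while at 5 mg/kg 2 lay below and 3 among them. The log2 difference at 1 mg/kg was -1.05 ± 0.43 (SE), a 2.07-fold lower level with an interval of -1.96 to -0.15, and it did not pass (adjusted p = 0.831, unadjusted p = 0.0251). Without the mouse at 36.6, replicate 5, it was -0.54. At 5 mg/kg the difference was -0.23 ± 0.43 (-1.14 to 0.67, adjusted p = 0.945). A limma fit of only the vehicle and 5 mg/kg groups gave an adjusted p of 0.758. The 5 mg/kg level was 0.82 ± 0.43 above that at 1 mg/kg (-0.08 to 1.72, adjusted p = 0.623), and 0.31 without that mouse.

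Itgam (16409), the alpha chain of Mac-1 and the myeloid antigen CD11b, had nearly equal values in the vehicle mice and lower means at both doses. Probe set 1422046_at read 61.0, 57.5, 58.3, 59.5 and 52.4 with vehicle, the floor, 39.8, 61.7, 38.7 and 51.4 at 1 mg/kg, and 55.7, 44.2, 40.1, 38.9 and 30.3 at 5 mg/kg. At each dose 4 of 5 mice lay below all vehicle mice, and 1 reached into or above the vehicle range. The SD of log2 values was 0.08 in the vehicle group, 0.75 for the lower dose and 0.32 for the higher. The differences were -0.61 ± 0.29 at 1 mg/kg (-1.22 to 0.01, adjusted p = 0.866) and -0.49 ± 0.29 at 5 mg/kg (-1.11 to 0.13, adjusted p = 0.746). The 1 mg/kg mouse at the floor, replicate 1, is the array with the lowest median before normalisation, and leaving it out brought the difference at 1 mg/kg to -0.29. For 5 mg/kg, a limma fit of only that group and vehicle gave an adjusted p of 0.365.

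Itgb2 (16414) encodes CD18, the beta chain that Mac-1 and LFA-1 share. Probe set 1450678_at read 568, 846, 682, 714 and 749 with vehicle, 383, 609, 704, 577 and 364 at 1 mg/kg, and 480, 545, 600, 1162 and 634 at 5 mg/kg. At each dose 2 mice lay below all vehicle mice, and the highest level of all was in a mouse at 5 mg/kg. The differences were -0.47 ± 0.25 at 1 mg/kg (-1.01 to 0.07, adjusted p = 0.875) and -0.12 ± 0.25 at 5 mg/kg (-0.66 to 0.42, adjusted p = 0.958). The latter turned positive without scaling between arrays.

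Itgal (16408), the alpha chain of LFA-1, was read by 2 probe sets whose differences had opposite signs. The brighter, 1435560_at, read 123, 257, 342, 264 and 268 with vehicle, 143, 204, 220, 186 and 155 at 1 mg/kg, and 149, 200, 186, 210 and 179 at 5 mg/kg. All 10 treated mice lay below 4 of the vehicle mice and above the other, vehicle replicate 1. The differences were -0.41 ± 0.24 at 1 mg/kg (adjusted p = 0.888) and -0.37 ± 0.24 at 5 mg/kg (adjusted p = 0.778). Without vehicle replicate 1 they were -0.65 (adjusted p = 0.55) and -0.62 (adjusted p = 0.352), still short of the threshold. That mouse also had the lowest summed platelet markers with vehicle, 5424 against a group median of 11250. The other probe set, 1425367_at, gave 0.28 ± 0.47 at 1 mg/kg and 0.23 ± 0.47 at 5 mg/kg, from 39.6 to 306 over the 15 mice. Over the same mice the 2 probe sets correlated at r = -0.26, so the direction for Itgal depends on which of them is read.

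Itga4 (16401), the CD49d chain shared by VLA-4 and the gut-homing integrin, was the gene with the smallest p at both doses. Probe set 1436037_at read 242, 329, 389, 332 and 269 with vehicle, 211, 287, 210, 197 and 152 at 1 mg/kg, and 191, 176, 247, 299 and 205 at 5 mg/kg. There were 4 mice at 1 mg/kg and 3 at 5 mg/kg below all vehicle mice, and the rest overlapped them. The differences were -0.57 ± 0.21 at 1 mg/kg (1.49-fold lower, -1.02 to -0.12, adjusted p = 0.81, unadjusted p = 0.016) and -0.49 ± 0.21 at 5 mg/kg (1.40-fold lower, -0.94 to -0.04, adjusted p = 0.563, unadjusted p = 0.0344). The doses themselves differed by 0.08 ± 0.21, with an interval of -0.37 to 0.53.

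A further bright probe set of Itga4, 1456498_at, gave differences of the same sign, with r = 0.59 to the first over the 15 mice. It read 186, 208, 110, 226 and 215 with vehicle, 104, 177, 68.0, 115 and 104 at 1 mg/kg, and 143, 66.2, 144, 194 and 145 at 5 mg/kg. All mice at 1 mg/kg lay below 4 of the vehicle mice and overlapped only the low one, replicate 3, while at 5 mg/kg the mouse at 194 also reached into the other vehicle values. The differences were -0.76 ± 0.31 at 1 mg/kg (-1.41 to -0.11, adjusted p = 0.831, unadjusted p = 0.0248) and -0.48 ± 0.31 at 5 mg/kg (adjusted p = 0.768). The third, 1421194_at, was above the floor on 3 of 5 mice of each group and gave -0.10 at 1 mg/kg and 0.13 at 5 mg/kg.

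Itgb1 (16412), the CD29 beta chain of VLA-4 and of most matrix-binding integrins, differed in sign between the doses in its brightest probe set. Probe set 1452545_a_at read 348, 346, 235, 375 and 256 with vehicle, 309, 272, 444, 424 and 342 at 1 mg/kg, and 293, 291, 140, 354 and 183 at 5 mg/kg. There were 2 mice above all vehicle mice at 1 mg/kg, and at 5 mg/kg 2 lay below all of them. The differences were 0.20 ± 0.26 at 1 mg/kg (-0.35 to 0.75, adjusted p = 0.945) and -0.36 ± 0.26 at 5 mg/kg (-0.91 to 0.18, adjusted p = 0.802). Between the doses the difference was -0.56 ± 0.26 (-1.11 to -0.02, adjusted p = 0.56, unadjusted p = 0.0443), and -0.37 without 5 mg/kg replicate 3, the mouse at 140.

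Of the 4 dimmer tested probe sets of Itgb1, 3 lay below 0 at 5 mg/kg and 4 at 1 mg/kg, without passing. At 5 mg/kg the differences were -0.55 ± 0.30 for 1427771_x_at, -0.47 ± 0.25 for 1426918_at, -0.10 ± 0.32 for 1426920_x_at and 0.18 ± 0.26 for 1438119_at. At 1 mg/kg they were -0.01, -0.17, -0.26 and -0.01, and all adjusted p-values were between 0.697 and 0.997. Probe set 1426918_at was above the floor on 5 vehicle mice, 3 at 1 mg/kg and 1 at 5 mg/kg, so the choice of floor bears on its value. The suffix _x_at marks probe sets that can match other transcripts.

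Itgb7 (16421), the beta chain of the gut-homing receptor, overlapped widely between the groups. Probe set 1418741_at read 95.8, 152, 149, 141 and 117 with vehicle, 151, 141, 103, 169 and 68.3 at 1 mg/kg, and 59.8, 127, 171, 107 and 136 at 5 mg/kg. The vehicle range lay within that of each dose. The differences were -0.10 ± 0.29 at 1 mg/kg (-0.72 to 0.52, adjusted p = 0.977) and -0.18 ± 0.29 at 5 mg/kg (-0.81 to 0.44, adjusted p = 0.937). Both turned sign on leaving out 1 mouse, to 0.10 without 1 mg/kg replicate 5 and to 0.05 without 5 mg/kg replicate 1.

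Icam1 (15894), the ligand of LFA-1 and Mac-1 that inflammatory signals induce on endothelium and leukocytes, lay near the floor in blood. Probe set 1424067_at read 21.2, 29.7, 24.7, 51.6 and 47.5 with vehicle, 28.4, 29.0, 22.4, 28.1 and the floor at 1 mg/kg, and 22.4, 31.3, 16.8, 39.4 and 27.6 at 5 mg/kg. The pair of highest mice were both given vehicle, and the other vehicle mice lay among the treated ones. The differences were -0.44 ± 0.29 at 1 mg/kg (-1.06 to 0.18, adjusted p = 0.898) and -0.32 ± 0.29 at 5 mg/kg (-0.94 to 0.30, adjusted p = 0.866). For Icam1 these values moved with single mice and with the processing. At 5 mg/kg the difference was -0.15 with either vehicle replicate 4 or 5 mg/kg replicate 3 left out, -0.02 without scaling and -0.97 with the 18S covariate. The value at 1 mg/kg was -0.28 without vehicle replicate 4 and -0.29 without 1 mg/kg replicate 5.

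Cd44 (12505), the hyaluronan receptor that also marks activated and memory T cells, was read by a pair of bright probe sets with similar profiles (r = 0.88 over the 15 mice). Probe set 1434376_at read 311, 765, 752, 659 and 580 with vehicle, 194, 446, 572, 502 and 393 at 1 mg/kg, and 365, 373, 449, 473 and 485 at 5 mg/kg. The 4 upper vehicle mice lay above all 10 treated mice, and vehicle replicate 1 lay below all but 1 of them. The differences were -0.56 ± 0.30 at 1 mg/kg (-1.19 to 0.06, adjusted p = 0.875) and -0.46 ± 0.30 at 5 mg/kg (-1.08 to 0.17, adjusted p = 0.778). Probe set 1423760_at read 236, 491, 498, 457 and 447 with vehicle, 238, 289, 419, 298 and 271 at 1 mg/kg, and 285, 272, 327, 447 and 338 at 5 mg/kg. Its differences were -0.47 ± 0.23 at 1 mg/kg (adjusted p = 0.871) and -0.32 ± 0.23 at 5 mg/kg (adjusted p = 0.81). Here vehicle replicate 1 was the lowest of the 15. Without that mouse the differences at 1 and 5 mg/kg were -0.79 and -0.68 for 1434376_at and -0.67 and -0.52 for 1423760_at, with adjusted p-values of 0.492 to 0.597. Without 1 mg/kg replicate 1, the value of 1434376_at at that dose was -0.30. The third probe set, 1452483_a_at, was above the floor on 4, 2 and 3 mice of the vehicle, 1 mg/kg and 5 mg/kg groups and gave -0.71 ± 0.44 at 1 mg/kg and 0.09 ± 0.44 at 5 mg/kg.

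**Figure D2:**
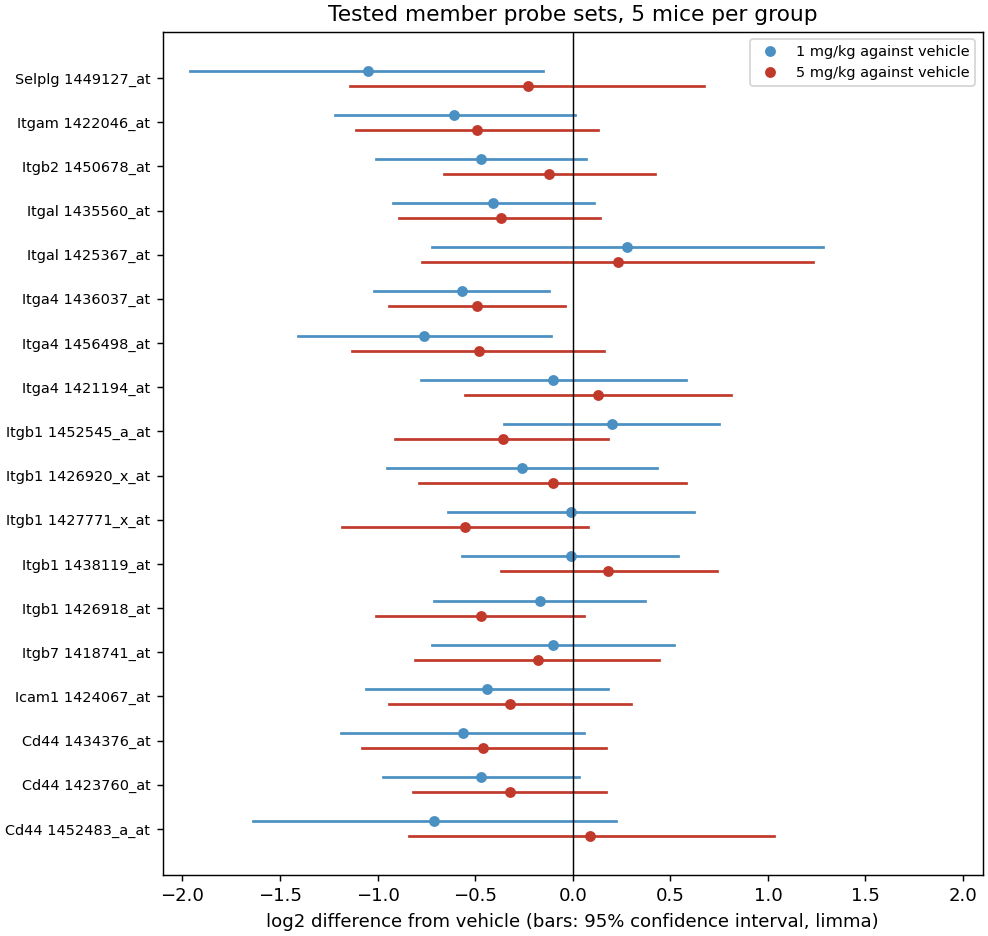
Log2 difference from vehicle of the 18 tested probe sets (rows, by gene), with points for the estimate at 1 mg/kg (blue) and 5 mg/kg (red) and bars for the 95% confidence interval of limma, 5 mice per group. Most points lie left of 0, from -1.05 to 0.28, and the intervals of all but Selplg and the brighter Itga4 probe sets cross 0 at 1 mg/kg.

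The chains that pair as protein were compared over the 15 mice, using the brightest probe set of each gene, in 4 pairs with permutation tests and Benjamini-Hochberg adjustment over the 4. Itgal and Itgb2, the chains of LFA-1, gave Pearson r = 0.61 (permutation p = 0.0154, adjusted p = 0.0618) and Spearman rho = 0.80 (permutation p = 0.00066, adjusted p = 0.00264). Without the 2 mice farthest from the median of Itgal r was 0.76, and with each group centred on its own mean it was 0.57. The permutations ran over all 15 mice regardless of group, so these p-values include differences between groups, and the centred r was not tested. The other Itgal probe set, 1425367_at, gave r = -0.06 with Itgb2, so this relation holds for 1 of the 2 only. Itgam and Itgb2 gave r = 0.33 (permutation p = 0.234, adjusted p = 0.312), rho = 0.24 (permutation p = 0.381, adjusted p = 0.509) and r = -0.09 without the 2 farthest mice.

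For Itga4 neither partner gave a relation past an adjusted p of 0.05. Itga4 and Itgb1 gave r = -0.10 (permutation p = 0.733, adjusted p = 0.733) and rho = -0.05 (permutation p = 0.871, adjusted p = 0.871), with r = 0.08 without the 2 farthest mice. Itga4 and Itgb7 gave r = 0.46 (permutation p = 0.0766, adjusted p = 0.153), rho = 0.41 (permutation p = 0.132, adjusted p = 0.264) and r = 0.24 without the 2 farthest. With each group centred on its own mean, r was 0.51 for Itga4 with Itgb7, near the value of the LFA-1 pair. It was -0.18 for Itga4 with Itgb1 and 0.15 for Itgam with Itgb2. All of these points share the mix of cells and the normalisation of each mouse's array.

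**Figure D3:**
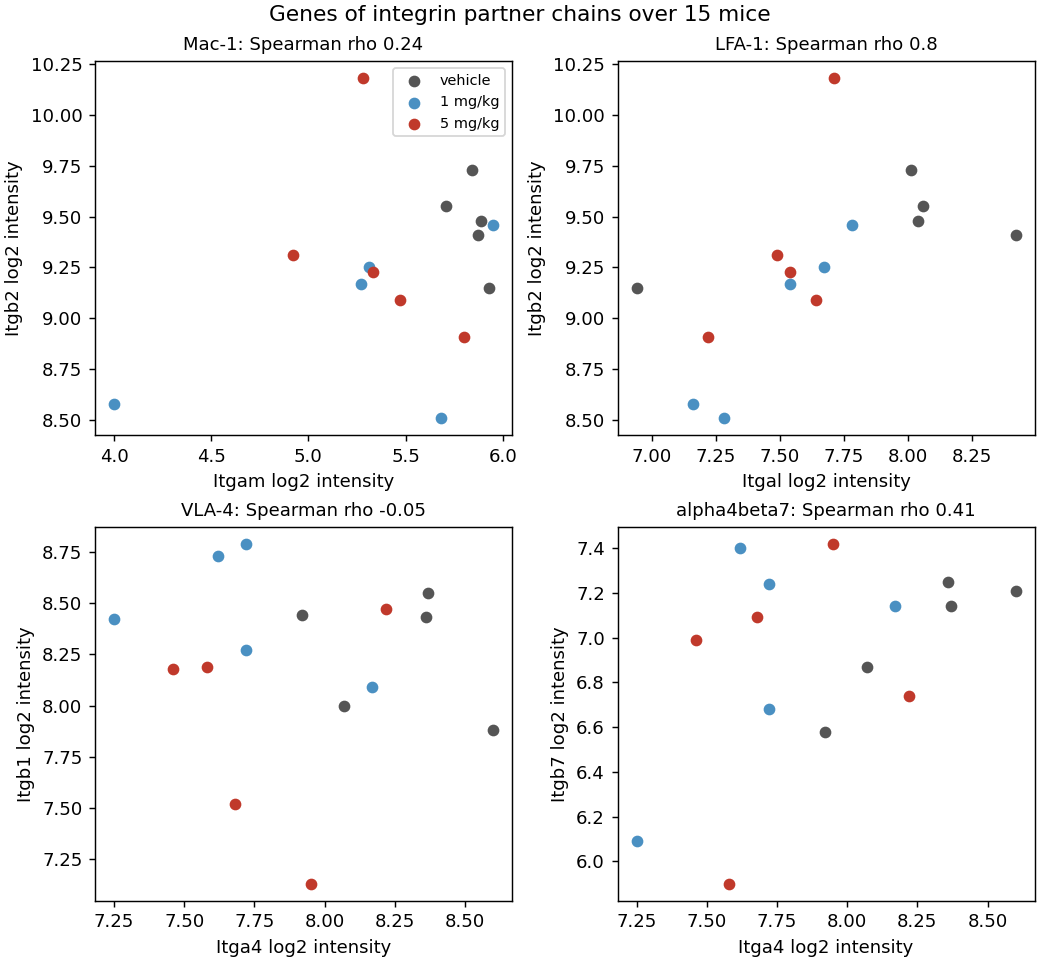
Log2 intensity of the alpha chain gene (horizontal) against the beta chain gene (vertical) for the 4 partner pairs, 1 point per mouse, coloured by group (grey vehicle, blue 1 mg/kg, red 5 mg/kg). The LFA-1 pair runs upward (rho 0.80), and the VLA-4 pair shows no trend (rho -0.05).

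For each gene the 3 probe sets of other genes with the most similar profile over the 15 arrays were listed, as a description with no test, from the tested singly annotated probe sets. For Selplg they were Ssh2 (r = 0.94), Ccm2 (0.92) and Grk6 (0.92). For Itgam they were Tmem33 (0.91), Sh3bgrl (0.89) and Anxa7 (0.89), and for Itgb2 Arpc2 (0.94), a subunit of the actin-branching Arp2/3 complex, Gng2 (0.90) and Fcmr (0.87). Itgal was closest to Slc2a3 (0.92), Cd151 (0.90) and Pf4 (0.90), the last a chemokine of platelet granules, and Cd44 to Rab27b (0.91), Marcks (0.91) and Nptn (0.90). Itga4 was closest to Ly86 (0.88), Kbtbd11 (0.88) and Lsp1 (0.87), and Itgb1 to Babam2 (0.87), Grn (0.84) and Pisd (0.82). Itgb7 (Entpd5 0.84, Ppp2r5c 0.83, Ndrg1 0.80) and Icam1 (Gna13 0.78, Helb 0.77, Slc25a32 0.76) had the least close neighbours. Such values are the highest of many (19735 for Selplg) and share each array's depth of signal and cell mix.

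Other genes of the adhesion cascade did not pass either. Of the 79 genes in 5 lists, 74 had a probe set and 70 could be tested, each by its brightest probe set. In each list and comparison 0 passed an adjusted p of 0.05 (limma), while 9 of the 70 had an unadjusted p under 0.05 at 5 mg/kg against vehicle (12.9%, against 7.96% of all probe sets), 8 at 1 mg/kg (11.4% against 5.8%) and 6 between the doses (8.57% against 8.66%). Among selectins and the enzymes that modify their ligands, 4 of 8 were below 0 at 5 mg/kg and 6 of 8 at 1 mg/kg, with medians of -0.02 and -0.22. Selp, the selectin of platelet granules and endothelium, gave -1.06 ± 0.48 at 5 mg/kg (adjusted p = 0.608) and -0.61 ± 0.48 at 1 mg/kg. The sialyltransferase St3gal6 gave -0.47 ± 0.23 (adjusted p = 0.65), and Gcnt1, the core 2 branching enzyme, -0.28 ± 0.25 (adjusted p = 0.864). Selp was above the floor on 4, 3 and 3 mice of the vehicle, 1 mg/kg and 5 mg/kg groups and Gcnt1 on 4, 1 and 3.

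Of 12 other integrin chains 10 were below 0 at 5 mg/kg and 7 at 1 mg/kg, with medians of -0.23 and -0.07. Itgax, the CD11c chain of dendritic cells and monocytes, gave -0.88 ± 0.33 at 5 mg/kg (adjusted p = 0.459), and -0.34 ± 0.33 at 1 mg/kg. Itga6, a laminin receptor chain that platelets carry, gave -0.56 ± 0.21 at 5 mg/kg (adjusted p = 0.467) and -0.79 ± 0.21 at 1 mg/kg (adjusted p = 0.533). Itga9 lay the other way, at 0.44 ± 0.21 at 5 mg/kg (adjusted p = 0.643) and 0.65 ± 0.21 at 1 mg/kg (adjusted p = 0.76).

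Genes that switch integrins on or signal from them numbered 27, with 17 below 0 at 5 mg/kg and 25 at 1 mg/kg and medians of -0.07 and -0.26. Ptk2b, the focal adhesion kinase relative Pyk2, gave -0.59 ± 0.25 at 5 mg/kg (adjusted p = 0.548) and -0.55 ± 0.25 at 1 mg/kg. The adaptor Lcp2 (SLP-76) gave -0.41 ± 0.19 (adjusted p = 0.62) at 5 mg/kg and the kinase Syk 0.38 ± 0.23 (adjusted p = 0.747). Among 13 counter-receptors and transmigration molecules 8 were below 0 at each dose, with medians of -0.05 at 5 mg/kg and -0.16 at 1 mg/kg. The signal-regulatory receptor Sirpa gave -0.56 ± 0.23 (adjusted p = 0.547) and Cd99l2 -0.68 ± 0.32 (adjusted p = 0.616), both at 5 mg/kg. Pecam1, a junctional molecule, was above the floor on 4 vehicle mice, 0 at 1 mg/kg and 1 at 5 mg/kg, so its difference of -0.40 ± 0.17 at 5 mg/kg (adjusted p = 0.566) is set by the floor.

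The partners of CD44 had a positive median at the higher dose, 0.24 over 10 genes with 3 below 0, against -0.22 with 8 below 0 at 1 mg/kg. Ezr, which encodes ezrin, the linker between CD44 and cortical actin, gave 0.91 ± 0.23 at 5 mg/kg and -0.16 ± 0.23 at 1 mg/kg. It had the smallest p of the 70 genes at 5 mg/kg and did not pass (adjusted p = 0.192, unadjusted p = 0.0013). Adam10, a protease that sheds CD44, gave 0.34 ± 0.18 (adjusted p = 0.689), and Cd74, the invariant chain that signals through CD44, 0.35 ± 0.29 (adjusted p = 0.843).

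**Figure D4:**
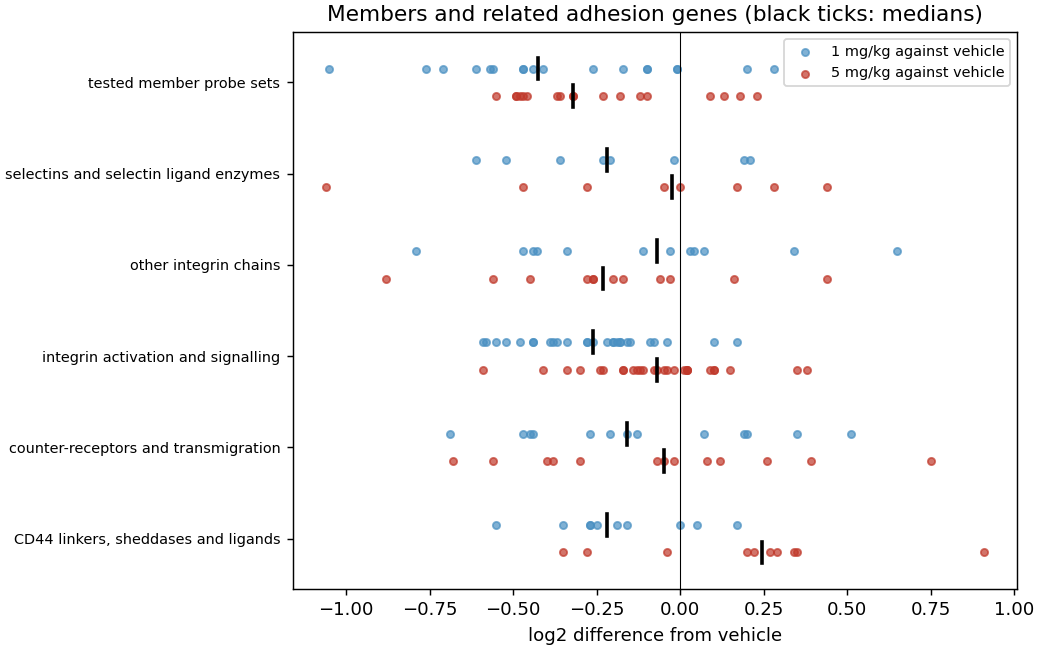
Log2 difference from vehicle of the 18 tested member probe sets and of the tested genes of the 5 related lists (rows), 1 point per probe set or gene, blue for 1 mg/kg and red for 5 mg/kg, with black ticks at the medians. The member medians are -0.42 and -0.32, and the list of CD44 partners has its median at 0.24 at 5 mg/kg.

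Markers of blood cell types were read beside these genes, and 0 of the 54 tested markers passed the threshold in any comparison (limma). At an unadjusted p under 0.05, 8 of 10 monocyte markers were lower at 5 mg/kg and 6 of 10 at 1 mg/kg. Of all 24273 probe sets, 896 were lower and 1037 higher at 5 mg/kg by the same measure, and 915 lower and 494 higher at 1 mg/kg. Neutrophil markers had 2 of 7 lower at each dose and NK cell markers 1 of 6. At 5 mg/kg 3 of 7 B cell markers and 1 of 8 T cell markers were higher, with 0 of either at 1 mg/kg. The platelet, erythroid and endothelial lists had 0 in either direction, and the eosinophil list 1 of 2 lower at 5 mg/kg. The summed level of monocyte markers was 6350 to 9604 with vehicle, 4300 to 7418 at 1 mg/kg and 3651 to 5014 at 5 mg/kg. Their median log2 differences were -0.60 and -0.89 at the lower and higher dose. The monocyte sums at 5 mg/kg lay below all vehicle sums, while those at 1 mg/kg overlapped them. Lyz2, the brightest monocyte marker (mean log2 12.26 with vehicle), weighs most in these sums. In the mean log2 value of the same markers a bright gene weighs no more than a dim one. It ran from 7.87 to 8.38 with vehicle, 7.03 to 7.73 at 1 mg/kg and 7.13 to 7.28 at 5 mg/kg, so neither dose overlapped vehicle. Among single probe sets this held for 0.865% at 1 mg/kg and 2.44% at 5 mg/kg. Neutrophil markers, 7 of 7 below 0 at each dose, summed to 2305 to 3544, 1224 to 2656 and 854 to 3557, with medians of -0.80 and -0.57. NK cell markers, 6 of 6 below 0 at each dose, summed to 647 to 1206, 441 to 900 and 413 to 1628.

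B cell markers, 7 of 7 above 0 at 5 mg/kg with a median of 0.64 and 4 of 7 below 0 at 1 mg/kg with a median of -0.02, summed to 960 to 2556 with vehicle, 555 to 2099 at 1 mg/kg and 1927 to 4139 at 5 mg/kg. T cell markers, 5 of 8 above 0 at 5 mg/kg and 6 of 8 below 0 at 1 mg/kg, had medians of 0.17 and -0.21 and summed to 1510 to 2168, 1233 to 2381 and 1611 to 2868, with Cd4 at the floor on all arrays. Platelet markers, 6 of 6 below 0 at each dose, had medians of -0.22 at 5 mg/kg and -0.35 at 1 mg/kg, and erythroid markers of -0.05 and -0.04. Every member is expressed by several of these cells, Itgam mainly by the myeloid ones, and the part of the cell mix in the member values was not tested.

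**Figure D5:**
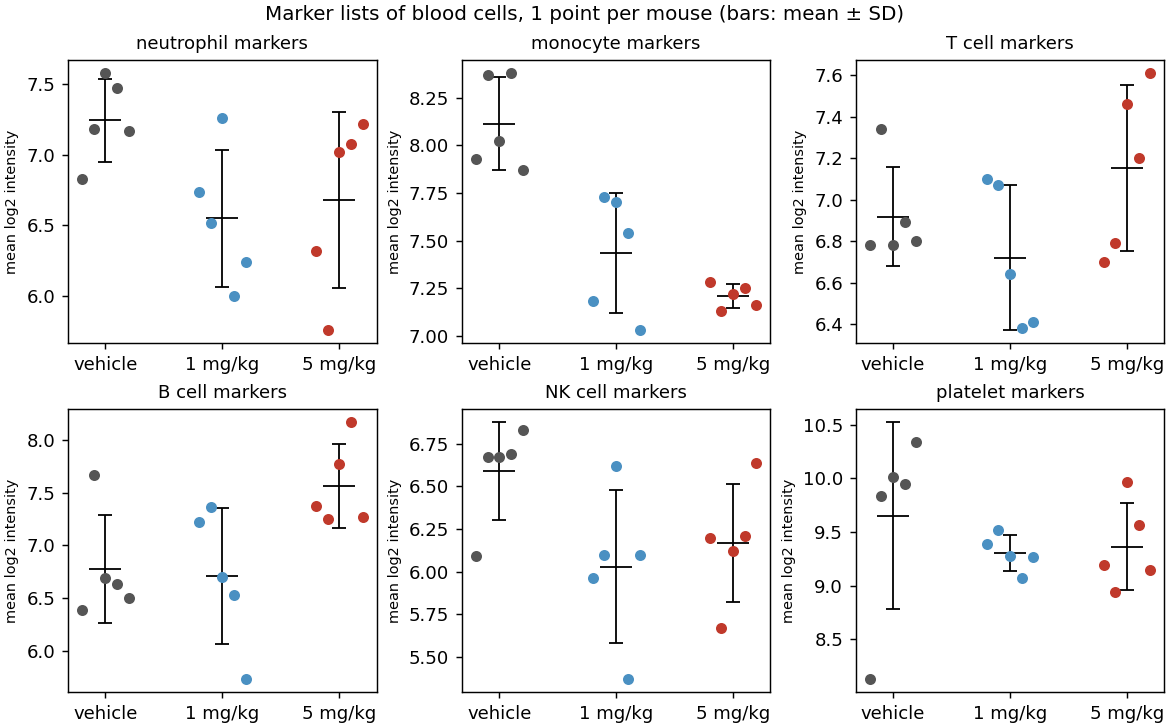
Mean log2 intensity of 6 marker lists (panels) by dose group, 1 point per mouse, with mean ± SD over 5 mice. The mean of the vehicle mice in the monocyte panel is 8.11, and those of the lower and higher dose are 7.44 and 7.21, and vehicle replicate 1 was far below the other vehicle mice in the platelet list.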

How the data were processed

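Total RNA from 15 blood samples was hybridised to Affymetrix 3' arrays, per the labels' protocols from 200 ng each. Each deposited value is a linear intensity of 1 probe set, some of them negative; the authors' software and normalisation are not given in the sources used here. After 64 control probe sets were left out, values were quantile-normalised, floored at 16 and taken to log2. Probe sets above the floor on at least 5 arrays entered a limma fit (version 3.58.1, R 4.3.3; lmFit, eBayes, group means, all 15 arrays, 12 residual and 3.936 prior degrees of freedom), with Benjamini-Hochberg adjustment over 24273 probe sets at a threshold of 0.05. The fit was tested on simulated data. Symbols came from the platform annotation, which can be old, with 34945 probe sets on 1 gene, 932 on several and 9160 with none listed. Named were all member probe sets, up to 3 genes of each related list, by smallest p at the higher dose, and the 3 closest profiles per member. Permutation tests of correlations were two-sided with 100000 resamples. The members and lists were chosen with earlier results of these data known. Alternatives changed the scaling, floor, filter, probe set summary, model and arrays. Same-numbered samples of different groups deviated together at r = -0.271 to 0.324 (median -0.008). Differently numbered ones did so at r = -0.341 to 0.351 (median 0.005), so the numbers were not taken as pairs.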

Additional observations from a re-analysis of the deposited data

Results flagged for a closer look

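Of 54 groups of 5 values, 18 probe sets in 3 groups, 7 had 1 mouse set apart from the other 4 by Dixon's 95% critical value, where chance gives about 1 in 20 for values that no floor has changed. In 13 of the 54 groups at least 1 value was set to the floor, which makes ties and voids that rate, and 2 of the 7 come from these. Of the other 41 groups 5 had such a mouse. Values are log2 intensities. Vehicle replicate 1 was the lowest for Itgal 1435560_at, at 6.94 with the others from 8.01 to 8.42, and for Cd44 1423760_at, at 7.88 with the others from 8.81 to 8.96. Itga4 1456498_at had vehicle replicate 3 lowest, at 6.78, and 5 mg/kg replicate 2 lowest, at 6.05. Itgb1 1427771_x_at had 1 mg/kg replicate 1 highest, at 6.08. Groups with values at the floor gave Itga4 1421194_at, with 1 mg/kg replicate 2 highest at 5.30, and Itgb1 1426918_at, which had 5 mg/kg replicate 5 highest, at 4.76, with the other 4 mice at the floor.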

How the results depend on the processing

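With 15 other settings and 15 left-out arrays, 0 of the 54 member differences passed the threshold in any, and 30 never turned sign. The member median ran from -0.48 to -0.17 at 5 mg/kg, -0.57 to -0.21 at 1 mg/kg and 0.02 to 0.19 between the doses. Counts over all probe sets were less stable. At 5 mg/kg against vehicle, 33 became 4 without scaling (0 higher and 4 lower, against 11 and 22), 73 with a floor of 32, 11 with the brightest probe set per gene, 95 with array weights and 0 with the 18S signal as a covariate. Leaving out 1 array gave 15 to 41, with the lowest, 15, 18, 19 and 21, without 5 mg/kg replicate 5 and vehicle replicates 1, 4 and 3. At 1 mg/kg against vehicle, 2 became 10 with a floor of 32, 1 with a floor of 8, the brightest probe set or the gene mean, and 0 without scaling, with filters of at least 1 or at least 10 arrays or none, with only the 2 groups, with the replicate block or with the 18S covariate, and left-out arrays gave 0 to 7. Between the doses, 0 became 1 with a floor of 8, with log2(value + 16) or with array weights, and left-out arrays gave 0 to 1. The cause was not tested. The replicate block left 28, 0 and 0 probe sets past the threshold and 0 members, and 3 of 15 arrays correlated best with their own number. With 5 arrays per group, the member intervals reached from -1.96 to 1.74.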
